A study of Homo sapiens with 6 samples.

Results

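The anaphase-promoting complex, or APC/C, and the enzymes and proteins that work with it were represented by 10 genes, taken by symbol from the deposited table of 26334 genes. They were the E2 enzymes UBE2C and UBE2S, the coactivators CDC20 and FZR1, the inhibitor FBXO5, the catalytic subunits ANAPC2 and ANAPC11, the scaffold subunit ANAPC1, and CDC16 and CDC27, subunits built of tetratricopeptide (TPR) repeats. All 10 genes passed the filter on low counts, which left 16117 genes for testing. The libraries came from MCF10DCIS.com, an established human breast cancer cell line, infected with a puromycin-selectable, TagRFP-carrying lentiviral vector and selected in 3 µg/ml puromycin. The vector expressed from its U6 promoter short hairpin RNA against luciferase in the control group (shLuc) or against WDR5 in the silenced group (shWDR5), and each group had 3 libraries of poly-A RNA. The study's methods describe a pool of 2 WDR5 hairpins for this cell line, whereas the sample labels name the shWDR5 vector without a number of hairpins. WDR5 is a core subunit of the histone H3 K4 methyltransferase complexes, and the comparison asked which transcripts changed when it was silenced. Since the cells were selected pools in bulk culture, fewer cycling cells and less RNA per cell cannot be told apart.

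The APC/C is a multi-subunit ubiquitin ligase that ends mitosis by marking securin and the B-type cyclins for destruction. CDC20 directs it to these substrates from early mitosis, and FZR1 (also called CDH1, but not the E-cadherin gene of that symbol) takes over as cells leave mitosis and keeps it active through the next gap phase. UBE2C places the starting ubiquitins, UBE2S lengthens the chain, and FBXO5 (EMI1) holds the FZR1-bound complex inactive while DNA is replicated. Transcripts of CDC20, UBE2C and many APC/C substrates are known to peak late in the cell cycle, whereas most core subunits are made throughout it.

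Sequences before the transcription start are shown for 4 genes whose levels moved in different ways: CDC20 and FBXO5 fell, CDC16 rose, and FZR1 was not called. They are RefSeq sequences on GRCh38.p14, read 5′ to 3′ on the strand of the gene. Each starts 150 bases before the annotated start and stops before any GENCODE exon. The stretches end 26 bases before the start for CDC20, 10 for CDC16 and 38 for FZR1, while that of FBXO5 runs up to the start. Capitals mark letters searched on both strands: the cell cycle homology region, or CHR (TTTGAA or TTCGAA), the CCAAT box (CCAAT), E2F letters (TTTCCCGC, TTTGGCGC, TTTCGCGC or TTTGCCGC) and the E-box (CACGTG). The CDC20 stretch lies at chr1:43358831-43358954 on the plus strand, the FBXO5 stretch at chr6:152983042-152983191 on the minus strand, the CDC16 stretch at chr13:114234747-114234886 on the plus strand, and the FZR1 stretch at chr19:3506161-3506272 on the plus strand.
CDC20: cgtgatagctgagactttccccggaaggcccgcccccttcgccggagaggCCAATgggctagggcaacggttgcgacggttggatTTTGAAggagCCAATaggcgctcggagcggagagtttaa
FBXO5: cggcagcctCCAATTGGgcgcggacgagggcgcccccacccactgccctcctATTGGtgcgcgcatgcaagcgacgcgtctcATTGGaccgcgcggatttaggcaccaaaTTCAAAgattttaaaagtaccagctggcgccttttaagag
CDC16: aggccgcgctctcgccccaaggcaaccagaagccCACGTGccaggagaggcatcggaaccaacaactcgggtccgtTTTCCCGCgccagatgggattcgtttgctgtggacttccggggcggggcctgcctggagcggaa
FZR1: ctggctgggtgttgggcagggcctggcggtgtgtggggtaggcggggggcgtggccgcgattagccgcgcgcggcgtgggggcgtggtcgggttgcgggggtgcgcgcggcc

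Over the whole window of 250 bases before to 50 after each start, 9 of the 10 genes had an entry, all except UBE2C, with 14 entries in total since 3 genes had more than 1 start. CDC20 held 2 CHR matches and 2 CCAAT boxes, and a CHR match 65 bases before the start stood next to a CCAAT box 55 bases before it. FBXO5 had 2 annotated starts. The window shown held 1 CHR match, 40 bases before the start, and 4 CCAAT boxes, of which a pair overlapped on opposite strands, while the window of its other start held none of the letters searched. CDC16 held 1 E-box and 1 E2F match, 116 and 74 bases before the start, the only ones among the 9 genes with an entry, and 1 CCAAT box outside the stretch shown. UBE2S held 1 CCAAT box, 191 bases before the start and outside the stretch nearest to it. FZR1 had 2 annotated starts. The window of the start shown held 1 CHR match, 226 bases before that start and outside the printed stretch. The window of its other start held none of the letters searched. Among genes not called, CDC27 held 1 CCAAT box, 226 bases before the start. ANAPC11 held 1 in each of its entries 1, 2 and 3, and ANAPC2 held none of the letters. ANAPC1 held 1 CHR match, 37 bases after the start. CHR letters were found in 4 of 9 genes (4 of 14 entries) and CCAAT boxes in 6 of 9 (8 of 14 entries). The shares over all 35116 promoter entries were 16.4% and 34.6%. Entries 2 and 3 of ANAPC11 overlap and hold the same CCAAT box, which is counted for each. E2F letters were in 3.31% and the E-box in 7.26% of all entries. These matches describe letters and do not show that any factor binds there.

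The libraries held 38218108 to 57640167 counts, and each of the 10 genes had at least 585 counts in every library. WDR5 itself gave 52.6, 48.5 and 51.4 CPM (counts-per-million, scaled by library) in the shLuc libraries and 23.4, 24.4 and 20.8 in the shWDR5 libraries, so the groups did not overlap. Its log2 fold change (shWDR5 against shLuc) was -1.15 ± 0.07 (SE, edgeR quasi-likelihood test, Benjamini-Hochberg adjusted p = 8.67e-07). All 9 breast epithelial markers examined were detected. KRT5, KRT14, KRT17 and TP63 were called higher and CDH1 and EPCAM lower in shWDR5, and KRT8, KRT18 and ITGA6 were not called. By the same rule 26.6% of all tested genes were called higher and 29.9% lower. Of 7 markers of blood, endothelial and liver cells, CD3E and HBB had no counts, PTPRC, VWF and ALB stayed below the test filter, CD68 was tested and not called, and PECAM1 was called lower (log2 fold change -0.71, edgeR adjusted p = 5.65e-05), at 6.31 to 6.69 CPM in shLuc and 3.80 to 4.19 CPM in shWDR5. The summed level of these 7 markers was 17.4 to 19.7 CPM in shLuc and 14.3 to 16.6 CPM in shWDR5. Libraries numbered 1 stood apart in each group: the chi-square per degree of freedom between replicate 1 and the others was 14.3 to 18.2, against 7.15 to 7.39 between replicates 2 and 3. Since nothing in the labels says that replicates were separate cultures, p-values measure the spread between these libraries, which may be technical.

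Of the 10 genes, 5 were lower in shWDR5 cells, 1 was higher and 4 were not called, at an adjusted p below 0.05. Both E2 enzymes, CDC20, FBXO5 and ANAPC1 fell, and CDC16 rose. A large part of the transcriptome differed between the groups, and 29.9% of all tested genes were called lower and 26.6% higher by the same rule. With a log2 fold change of at most -0.6 required as well, CDC20 and FBXO5 were called lower, against 12.0% of all tested genes. The median log2 fold change was -0.19 over the 10 genes and -0.01 over all tested genes. The plot of CPM by library shows these levels for each gene. Groups without overlap were also seen for genes that were not called, such as the subunit ANAPC7 and the checkpoint gene MAD1L1. The share of all tested genes without overlap was not counted, so a lack of overlap cannot be read as setting these genes apart.

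**Figure D1:**
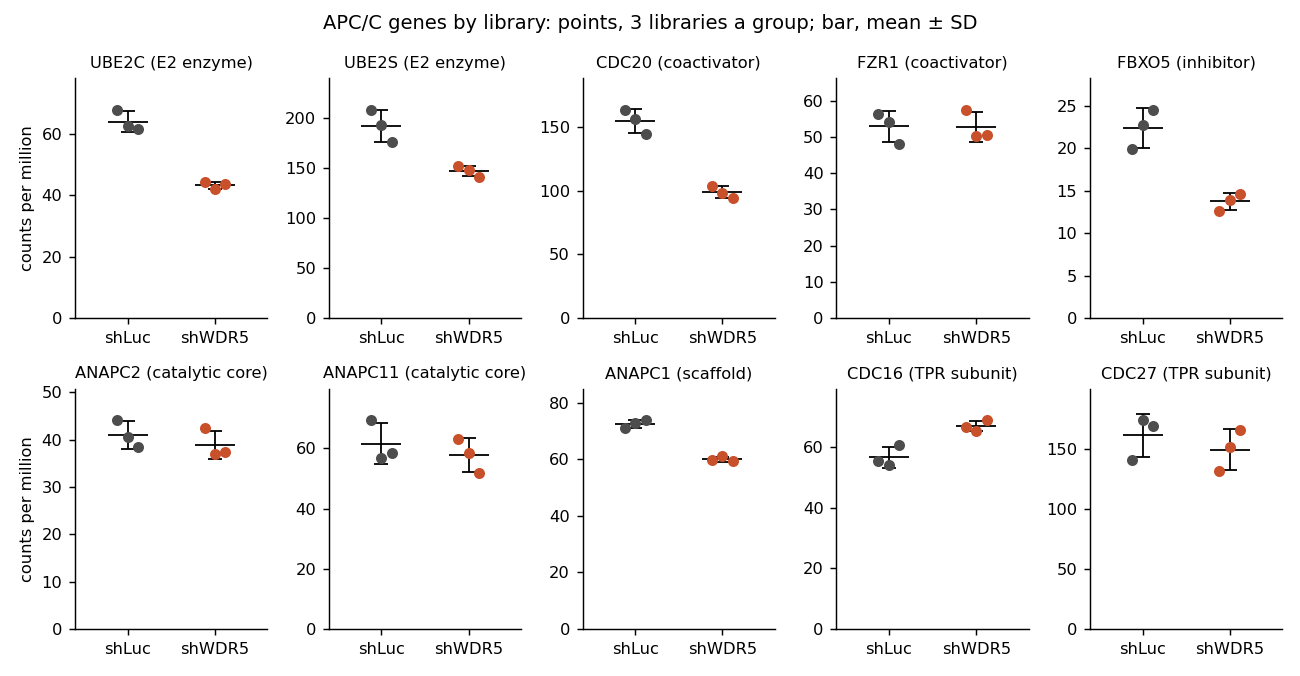
CPM (vertical axis, from 0) of each of the 10 genes in the 3 shLuc and 3 shWDR5 libraries, with points for libraries and bars for the mean and SD of a group. The groups do not overlap for UBE2C, UBE2S, CDC20, FBXO5, ANAPC1 and CDC16, and they overlap for FZR1, ANAPC2, ANAPC11 and CDC27. The share of all tested genes without overlap was not counted.

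UBE2C (chr20:44441215-44445596, plus strand, hg19), the E2 enzyme that starts the ubiquitin chain, gave 68.0, 62.7 and 61.6 CPM in shLuc and 44.4, 42.1 and 43.7 CPM in shWDR5. Every shWDR5 library lay below every shLuc library. The mean went from 64.1 ± 3.41 to 43.4 ± 1.18 CPM (SD, n = 3 libraries each), with a log2 fold change of -0.56 ± 0.06 (SE, edgeR adjusted p = 2.58e-05). UBE2S (chr19:55912650-55919325, minus strand), which extends the chain, fell less, from 209, 193 and 176 CPM to 152, 148 and 142 CPM. Its groups did not overlap either, and its log2 fold change was -0.39 ± 0.07 (SE, edgeR adjusted p = 0.000642).

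CDC20 (chr1:43824626-43828873, plus strand), the mitotic coactivator, gave 163, 156 and 145 CPM in shLuc and 104, 97.9 and 94.4 CPM in shWDR5. Its log2 fold change of -0.65 ± 0.06 (SE, edgeR adjusted p = 1.32e-05) placed it at the 11.1th percentile of all tested genes, counted from the most lowered. FZR1 (chr19:3506295-3536755, plus strand), the coactivator of mitotic exit and the following gap phase, gave 56.4, 54.2 and 48.0 CPM in shLuc and 57.5, 50.2 and 50.6 CPM in shWDR5. The groups overlapped throughout, and FZR1 was not called (adjusted p = 0.969), with a 95% interval of its log2 fold change from -0.18 to 0.17. The sign of this small value turned with the scaling, and the interval lay above that of CDC20, which ran from -0.79 to -0.51.

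FBXO5 (chr6:153291658-153304740, minus strand), the inhibitor of the FZR1-bound complex, had the fewest counts of the 10 genes and the largest decrease. It gave 19.9, 22.7 and 24.6 CPM in shLuc and 12.6, 13.9 and 14.7 CPM in shWDR5. Each shWDR5 value was below the lowest shLuc value, and the log2 fold change was -0.70 ± 0.09 (SE, edgeR adjusted p = 0.000101). Its 95% interval, -0.91 to -0.50, overlapped those of CDC20 and UBE2C.

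The catalytic core of the complex was not called. ANAPC2 (chr9:140069236-140083057, minus strand), the cullin-like subunit, gave 44.1, 40.5 and 38.4 CPM in shLuc and 42.4, 36.9 and 37.4 CPM in shWDR5. The groups overlapped, and the 95% interval of the log2 fold change ran from -0.25 to 0.09 (edgeR adjusted p = 0.425). ANAPC11 (chr17:79848666-79858409, plus strand), the RING subunit that contacts the E2 enzyme, gave 69.3, 56.9 and 58.3 CPM in shLuc and 63.1, 58.6 and 51.9 CPM in shWDR5. Its groups overlapped too, with an interval from -0.29 to 0.11 (edgeR adjusted p = 0.439). Exons of ANAPC11 shared 31 bases with ALYREF and those of ANAPC2 4 bases with SSNA1, in both cases on the opposite strand. The library kit did not mark strand, so reads over those bases cannot be told apart, and neither neighbour was called (log2 fold change -0.07 for ALYREF and 0.10 for SSNA1).

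Among the structural subunits the genes moved in different directions. ANAPC1 (chr2:112525214-112641741, minus strand), the largest subunit and the scaffold of the platform, gave 71.1, 72.6 and 73.7 CPM in shLuc and 59.5, 61.0 and 59.2 CPM in shWDR5. The spread within each group was small, the groups did not overlap, and the log2 fold change was -0.27 ± 0.05 (SE, edgeR adjusted p = 0.00117). A related pseudogene, ANAPC1P1, held at most 12 counts in any library, and how reads shared between the copies were assigned is not given in the sources used here. CDC16 (chr13:115000362-115038150, plus strand), a TPR subunit, rose from 55.4, 53.9 and 60.5 CPM to 66.5, 65.4 and 68.7 CPM. It was the only gene of the 10 called higher, with a log2 fold change of 0.24 ± 0.06 (SE, edgeR adjusted p = 0.00669). CDC27 (chr17:45195063-45266678, minus strand), the TPR subunit that holds the tail of the coactivator, gave 141, 173 and 169 CPM in shLuc and 131, 151 and 165 CPM in shWDR5. Its groups overlapped and it was not called (edgeR adjusted p = 0.363, 95% interval of the log2 fold change -0.33 to 0.11).

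Replicate 1 was the extreme library of its group for 8 of the 10 genes in the same way in shLuc and in shWDR5. It was the highest for UBE2C, UBE2S, CDC20, FZR1, ANAPC2 and ANAPC11 and the lowest for FBXO5 and CDC27. With replicate 1 of both groups left out, an alternative added after the data were seen, 5 genes were again called lower and 1 higher. In that fit the log2 fold changes were -0.52 for UBE2C, -0.33 for UBE2S, -0.62 for CDC20, -0.71 for FBXO5, -0.27 for ANAPC1 and 0.25 for CDC16.

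**Figure D2:**
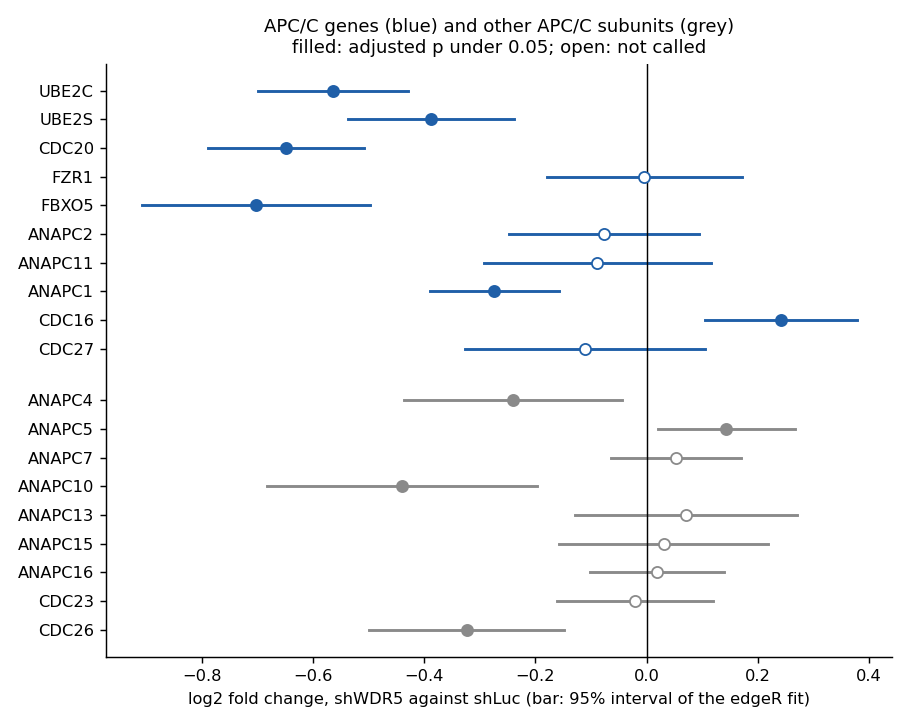
Log2 fold change of shWDR5 against shLuc (horizontal axis) with its 95% interval from the edgeR fit, for the 10 genes (blue) and the other 9 APC/C subunits (grey). Filled points passed an adjusted p of 0.05, and the lowest value is that of FBXO5 (-0.70) and the highest that of CDC16 (0.24).

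Levels between genes were compared as RPKM, the CPM divided by the exonic length in kilobases. In shLuc the order ran from UBE2S (162 ± 13.6 RPKM, SD, n = 3) through CDC20 (92.4 ± 5.70), UBE2C (50.9 ± 2.71), ANAPC11 (38.1 ± 4.22), CDC27 (27.4 ± 3.02), CDC16 (24.7 ± 1.52), ANAPC2 (15.2 ± 1.07), FZR1 (14.6 ± 1.20) and ANAPC1 (9.37 ± 0.17) to FBXO5 (9.09 ± 0.95). Neighbours whose libraries overlapped in this order were CDC27 and CDC16, ANAPC2 and FZR1, and ANAPC1 and FBXO5. Within the 10 genes the E2 enzymes and CDC20 stood above every core subunit in the control cells, and the lowest levels were those of ANAPC1 and FBXO5. In shWDR5 the level of UBE2C (34.4 ± 0.94 RPKM) overlapped that of ANAPC11 (35.9 ± 3.48), which it had exceeded in every shLuc library. CDC16 (29.2 ± 0.74 RPKM) moved above CDC27 (25.4 ± 2.95), and FBXO5 (5.58 ± 0.42) fell below ANAPC1 (7.74 ± 0.12) without overlap.

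**Figure D3:**
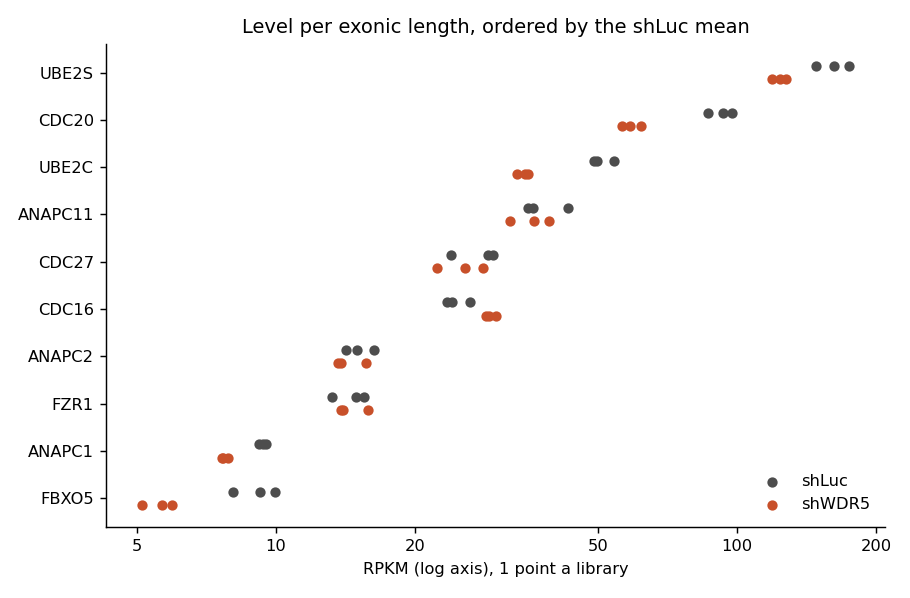
RPKM (horizontal log axis) of each of the 10 genes, 1 point a library, in shLuc (grey) and shWDR5 (orange), ordered by the shLuc mean. UBE2S and CDC20 hold the top places in both groups, and UBE2C reaches the range of ANAPC11 in shWDR5.

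Ratios within a library do not depend on how libraries are scaled. Reads per kilobase of CDC20 exceeded those of FZR1 by 6.27, 6.22 and 6.51 times in shLuc and by 3.90, 4.22 and 4.04 times in shWDR5. The groups did not overlap, and the difference of the log2 ratio was -0.64 (exact permutation test over libraries, two-sided p = 0.1, the smallest that 3 against 3 allows). The ratio of UBE2C to UBE2S was 0.308, 0.307 and 0.331 in shLuc and 0.276, 0.269 and 0.292 in shWDR5. This shift was smaller (log2 difference -0.18, exact permutation p = 0.1), and every shWDR5 value lay below every shLuc value. FBXO5 to FZR1 gave 0.518, 0.617 and 0.752 in shLuc and 0.323, 0.408 and 0.427 in shWDR5. Its log2 difference was -0.70 (exact permutation p = 0.1), with a spread among libraries that was wider, relative to the mean, than for the other ratios. With 3 ratios tested and this smallest p, none could pass a threshold of 0.05.

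**Figure D4:**
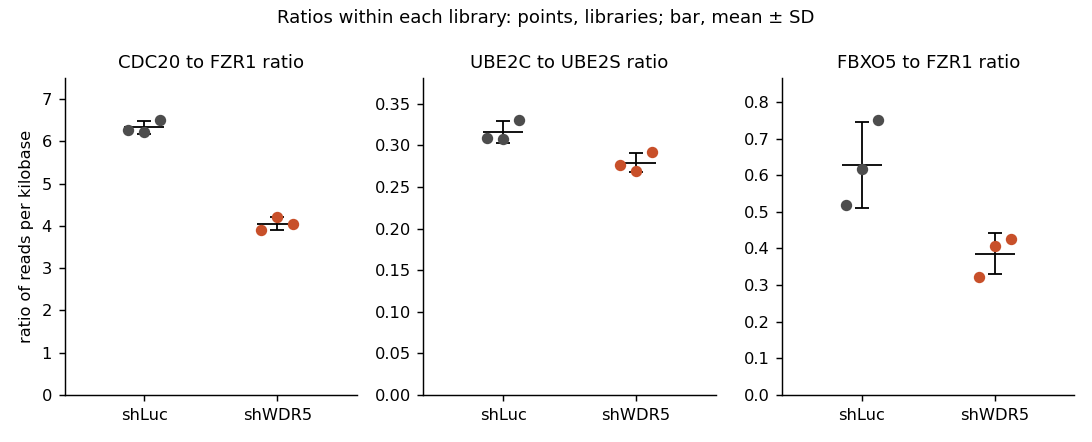
Ratio of reads per kilobase (vertical axis, from 0) of CDC20 to FZR1, UBE2C to UBE2S and FBXO5 to FZR1, with points for the 3 libraries of each group and bars for the mean and SD. For each ratio the shWDR5 libraries sit below the shLuc libraries, with means of 4.05 against 6.34 for CDC20 to FZR1.

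The other 9 subunits of the complex showed small changes in either direction: 3 were called lower, 1 higher and 5 were not called, with a median log2 fold change of 0.02. The share called lower was near the 29.9% over all tested genes, and 26.6% of all tested genes were called higher. ANAPC10, which helps the coactivator to hold substrates, went from 9.57 ± 1.43 to 7.05 ± 0.36 CPM (SD, n = 3), a log2 fold change of -0.44 ± 0.11 (SE, edgeR adjusted p = 0.00584). CDC26, a small subunit that binds CDC16, fell from 20.6 ± 1.48 to 16.5 ± 1.06 CPM (log2 fold change -0.32 ± 0.08, SE, edgeR adjusted p = 0.00527), whereas CDC16 rose. The platform subunits ANAPC4 and ANAPC5 were called in opposite directions, with log2 fold changes of -0.24 (edgeR adjusted p = 0.0382) and 0.14 (edgeR adjusted p = 0.0479). ANAPC4 and ANAPC5 lost their call when shLuc replicate 2 (adjusted p = 0.0674 and 0.168), shLuc replicate 3 (0.167 and 0.0997), shWDR5 replicate 1 (0.113 and 0.138) or shWDR5 replicate 2 (0.0956 and 0.110) was left out, and ANAPC5 also without shWDR5 replicate 3 (0.0514). None of the 9 had a log2 fold change beyond 0.6 in size.

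The next list held genes of the mitotic checkpoint, which restrains CDC20 until chromosomes are attached, and the paralogs CDC20B (of CDC20) and FBXO43 (of FBXO5, and like it an APC/C inhibitor). Of 10 listed, 9 were tested, 6 were called lower and 1 higher, and 2 were not called, with a median log2 fold change of -0.67, beside 29.9% lower, 26.6% higher and a median of -0.01 over all tested genes. MAD1L1, which recruits MAD2L1 to unattached kinetochores, was not called and gave 11.8, 12.6 and 11.7 CPM in shLuc and 14.2, 13.1 and 12.9 CPM in shWDR5 (log2 fold change 0.16, edgeR adjusted p = 0.0896). FBXO43 was not called either (adjusted p = 0.182), and CDC20B was too low to be tested. BUB1B, the BUBR1 subunit of the checkpoint complex that binds CDC20, gave 111, 116 and 112 CPM in shLuc and 55.1, 56.8 and 58.3 CPM in shWDR5 (log2 fold change -0.99, edgeR adjusted p = 3.17e-07). TTK, the kinase that starts the checkpoint, had a log2 fold change of -1.04, BUB1 of -0.84, MAD2L1 of -0.67 and BUB3 of -0.30, all called lower. TRIP13, an ATPase that takes the checkpoint complex apart, was called lower (-0.85), while its adaptor MAD2L1BP was called higher with a log2 fold change of 0.19 (edgeR adjusted p = 0.0368). The call of MAD2L1BP was lost without shLuc replicate 2 (adjusted p = 0.101), shLuc replicate 3 (0.118), shWDR5 replicate 1 (0.0983) or shWDR5 replicate 2 (0.0937).

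Transcripts of proteins that the APC/C degrades moved in 1 direction: all 28 listed substrates found in the table were called lower. Their median log2 fold change was -0.86, with a range from -1.30 to -0.19. Over all tested genes, 29.9% were called lower and 26.6% higher, with a median log2 fold change of -0.01. The substrate list, like the other lists, was chosen with earlier results of these data known, so its counts are only a description. CCNB1 (cyclin B1) gave 161, 151 and 147 CPM in shLuc and 99.7, 101 and 95.3 CPM in shWDR5, a log2 fold change of -0.63 (edgeR adjusted p = 7.57e-06), close to that of CDC20. PTTG1 (securin), which holds separase inactive, had a log2 fold change of -0.79, CCNA2 (cyclin A2) of -0.995 and GMNN (geminin), the inhibitor of replication licensing, of -0.74. The substrates with the largest decreases were NEK2, a centrosome kinase (-1.30), CDC25A, a phosphatase that activates cyclin-dependent kinases (-1.20), and CENPF, a kinetochore protein (-1.10). BIRC5 (survivin) had the smallest decrease (-0.19), which missed the threshold without shLuc replicate 1 (adjusted p = 0.0505) or shWDR5 replicate 3 (0.0553). Among 8 general cell cycle genes 6 were called lower, CCNE1 (cyclin E1) was called higher (0.48) and 1 was not called. The lowered genes included the proliferation marker MKI67 (-1.10) and the replicative helicase subunit MCM6 (-1.11). The 6 lowered markers of cycling moved with the E2 enzymes, CDC20 and FBXO5, and their part in those decreases was not tested. The plot of fold changes by list sets these groups beside all tested genes.

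**Figure D5:**
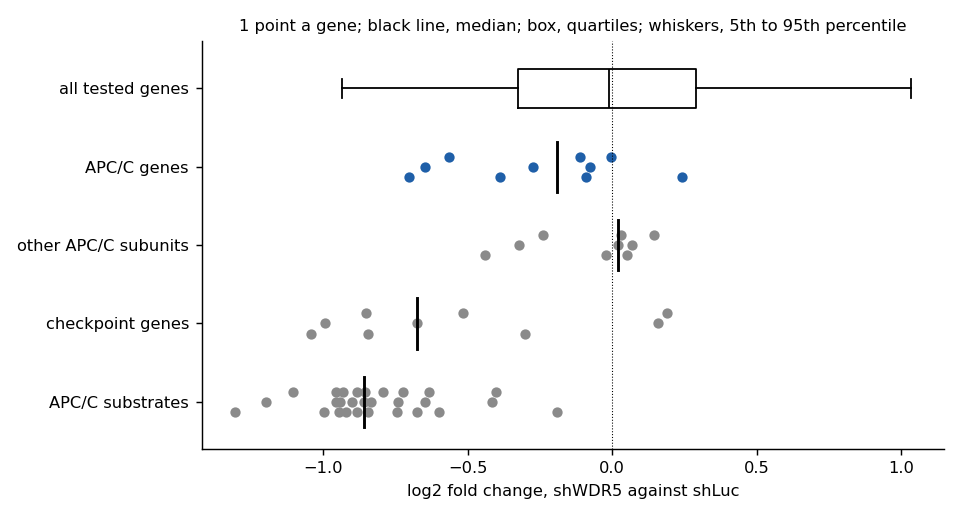
Log2 fold change of shWDR5 against shLuc (horizontal axis) for all 16117 tested genes (box, quartiles; whiskers, 5th to 95th percentile) and, 1 point a gene, for the 10 genes, the other APC/C subunits, checkpoint genes and substrates, with medians as black lines. The medians are -0.19 for the 10 genes, 0.02 for the other subunits, -0.67 for checkpoint genes and -0.86 for substrates.

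Across the 6 libraries, the profile of UBE2C in log2 CPM was closest to those of CDC20 (Pearson r = 0.991), UBE2S (0.966) and ANAPC1 (0.952) among the 10 genes, and CDC16 ran opposite to it (r = -0.917). Outside the lists the closest 5 genes were PAN2, GOLGA2P5, LOC100288866, KLHDC3 and MYL6B, each with r = 0.999. These values describe 6 libraries in 2 groups, and the gap between the groups sets most of their size.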

How the data were processed

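Poly-A RNA of 3 shLuc and 3 shWDR5 libraries was sequenced on an Illumina HiSeq. The deposited table held raw read counts per gene symbol, with hg19 exon coordinates and exonic lengths. The submitters' processing notes name TopHat2 2.1.0, featureCounts and edgeR 3.2.2, and the strand and multi-mapping settings are not given in the sources used here. A second deposited table held the authors' own fold changes and p-values and was not used.

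Counts were filtered with filterByExpr, scaled by TMM and tested with the edgeR 4.0.16 quasi-likelihood test (R 4.3.3) across all genes, with group as the only term and Benjamini-Hochberg adjustment over 16117 genes. A gene was called at an adjusted p below 0.05. The SE of a log2 fold change was its size divided by the square root of F. CPM and RPKM used TMM-scaled library sizes, and correlations log2(CPM + 1). DESeq2 1.42.0 and limma 3.58.1 (voom), other scalings and filters, a fold threshold of 0.6, the replicate number as a block, and leaving out libraries were the alternatives. The script was tested on simulated data. No pair of replicates agreed within sampling noise. Promoters came from the RefSeq table (GRCh38.p14), with GENCODE release 29 exons used to end the printed stretches.

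The members and lists were chosen with earlier results of these data known. Named were WDR5, the 10 members, genes of the fixed APC/C, E2 and checkpoint lists, of each substrate, cell cycle and marker list those among the 4 largest called changes each way, CCNB1, CCNA2, PTTG1, GMNN, the 5 genes closest to UBE2C, and overlapping or pseudogene rows. The remaining epithelial and other-cell markers were named as well, whether called or not. BIRC5 was singled out after its value was seen.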

Additional observations from a re-analysis of the deposited data

How the results depend on the processing

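The calls of the 10 genes (5 lower, 1 higher) were the same in number under DESeq2, limma-voom, each scaling, each filter and with any single library left out, and between 8120 and 8847 genes were called over all genes when a library was left out. Requiring a log2 fold change of at least 0.6 in size left 3690 genes in all, 2 of the 10 genes, 0 of the other subunits and 0 of the other E2 enzymes and deubiquitinases. The call of UBE2D2 was the one lost from that last list, leaving 1 gene called, with total-count scaling and with no low-count filter, and the marker list of other cells then had 2 calls with no filter. Leaving out single libraries gave 2 to 4 calls for the other subunits and 1 to 3 for the other E2 enzymes and deubiquitinases. FZR1 changed sign, with log2 fold changes of 0.013 (DESeq2), 0.013 (RLE scaling), 0.011 (RPKM filter) and 0.033 (upper quartile), and from -0.072 to 0.060 with libraries left out. ANAPC11 ran from -0.15 to 0.021 with libraries left out, and the cause was not tested. ANAPC4 and BIRC5 missed the threshold with upper quartile scaling (adjusted p = 0.0599 and 0.0511), and ANAPC5 and MAD2L1BP with total counts (0.198 and 0.113) and with no filter (0.0923 and 0.0630).

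Deviations of same-numbered libraries correlated at 0.64, 0.08 and 0.24, so the numbers were not taken as pairs, and shLuc replicate 2 correlated best with shWDR5 replicate 3 (0.44). With the replicate number as a block, 10412 genes and 7 of the 10 were called, the added gene being CDC27 (log2 fold change -0.11, edgeR adjusted p = 0.0386). Each group had 3 libraries, which limits the precision of every value.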

Other observations

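Of 6 genes listed as other E2 enzymes used by the APC/C or as deubiquitinases that oppose it, 5 were tested. Of these, 1 was called lower and 1 higher, beside 29.9% lower and 26.6% higher over all tested genes. USP37, a deubiquitinase that protects cyclin A from the FZR1-bound complex, gave 23.3, 27.1 and 29.2 CPM in shLuc and 16.5, 18.0 and 18.2 CPM in shWDR5. Its groups did not overlap, and the log2 fold change was -0.60 ± 0.09 (SE, edgeR adjusted p = 0.000247). UBE2D2, an E2 enzyme of broad use that can start chains on APC/C substrates, gave 107, 96.7 and 110.4 CPM in shLuc and 114, 119 and 118 CPM in shWDR5. The groups lay close to each other without overlap, and its log2 fold change was 0.16 ± 0.06 (SE, edgeR adjusted p = 0.0433). That call was lost without shLuc replicate 2 (adjusted p = 0.220), shWDR5 replicate 2 (0.132) or shWDR5 replicate 3 (0.1002).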
